A study of Arabidopsis thaliana with 6 samples.

Results

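Small heat shock proteins are chaperones that bind unfolding proteins and hold them until other chaperones refold them. In plants the family has members in the cytosol and also members that are imported into the endoplasmic reticulum, the mitochondria and the plastid. Their genes are known for low expression in unstressed leaves and for strong induction by heat through heat shock factors. The 5 organelle-targeted small heat shock protein genes described here were read on 5 of the 22746 non-control probe sets of the ATH1 array. They are ATHSP22.0 (AT4G10250, probe set 255811_at) of the endoplasmic reticulum, HSP23.6 (AT4G25200, 254059_at) of the mitochondria and HSP21 (AT4G27670, 253884_at) of the plastid. AT1G52560 (262148_at) and AT5G51440 (248434_at) are listed as organelle proteins with no single compartment given. The set was chosen by family and compartment with the signals of both genotypes already known, so the genotype differences of its members are a description and carry no test. The annotation used here pairs 3 of the 5 probe sets with a gene, while the genes of 254059_at and 253884_at come from the definition of the set.

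Whole seedlings of Col-0, the reference accession, were compared with seedlings of atsf1-2, a mutant in the Col-0 background of the pre-mRNA splicing factor AtSF1. Both were untreated and were harvested after 9 days on MS agar at 23 C, with 16 h of light and 8 h of dark, and each genotype had 3 biological replicates on 1 array each. The nature of the atsf1-2 lesion is not given in the sources used here, and the AtSF1 gene itself was not analysed here. Values are linear signals per probe set, and in whole seedlings a change in the share of a cell type cannot be told apart from a change in RNA per cell.

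The arrays had been scaled to the same trimmed mean, and their median signals lay between 165 and 195. Dim signals were raised on Col-0 replicate 2 and the third array of atsf1-2, with a 25th percentile of 50.3 and 45.9 against 31.6 to 36.8 on the other 4. The array carries 2 pairs of control probe sets for the 3' and 5' ends of actin transcripts, whose ratio is a measure of RNA integrity. With one pair the ratios on these arrays were 2.14 and 2.47, against 3.36 to 3.63 on the others. With the other pair they were 5.37 and 15.0, against 12.7 to 26.5, so that Col-0 replicate 2 was lowest in both and atsf1-2 replicate 3 was set apart in one. Root markers EXPA7, EXPA18 and PYK10 had log2 differences between -0.06 and -0.01, and LHCB4.3, the 1 green-tissue marker tested of 5 listed, had 0.56 ± 0.15 (SE, limma adjusted p = 0.0487). The annotation paired no probe set with any of the 7 listed seed markers alone.

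All 5 genes had higher signals in atsf1-2 than in Col-0, and for each of the 5 the lowest atsf1-2 array lay above the highest Col-0 array. Over all 22746 probe sets, with no filter on dim signals, 9.47% were separated in this direction. The difference was largest for ATHSP22.0 of the endoplasmic reticulum, with a fold of 17.9. It was 8.15-fold for AT1G52560 and 6.59-fold for the mitochondrial HSP23.6, and 2.57-fold for the plastid HSP21 and 2.5-fold for AT5G51440. These folds are ratios of geometric means over 3 arrays per genotype. Since the set was chosen on this contrast, the separation of its members supports nothing about them.

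**Figure D1:**
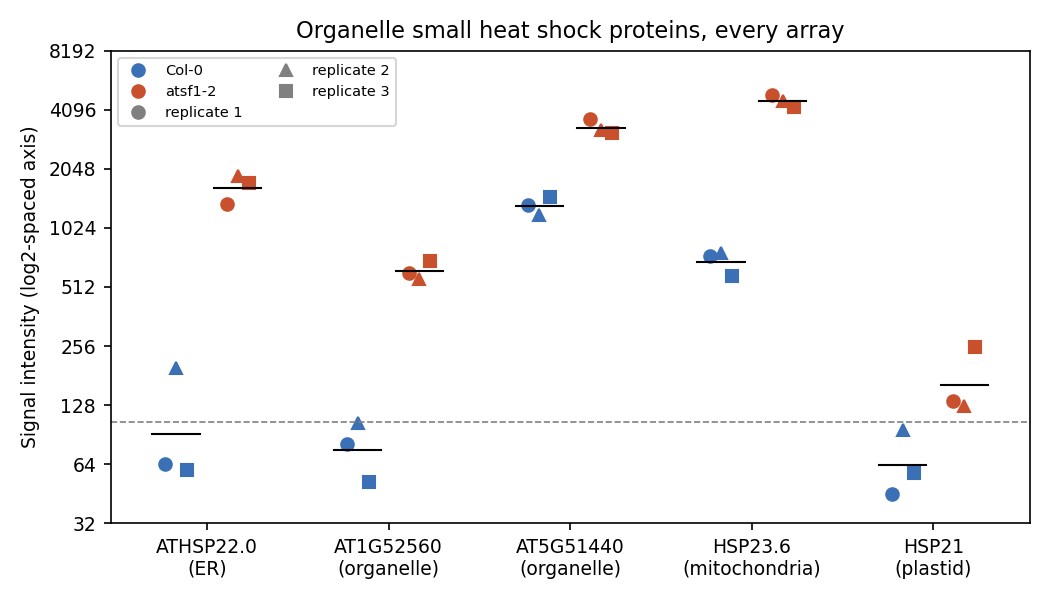
Signal intensity of the 5 organelle small heat shock protein genes on each array, on a log2-spaced axis. Colours mark the genotype, symbols the replicate number and black bars the geometric mean of 3 arrays, and the dashed line is the level of 104.4 below which probe sets were not tested. ATHSP22.0, AT1G52560 and HSP21 lie near or below that line in Col-0, while AT5G51440 and HSP23.6 lie well above it in both genotypes.

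ATHSP22.0 encodes the small heat shock protein of the endoplasmic reticulum. Its Col-0 signals were 64.1, 198 and 59.9, and its atsf1-2 signals were 1349, 1876 and 1730. The 3 mutant arrays were all far above the Col-0 arrays, and among the latter replicate 2 was the high one. The means were 107 ± 78.5 and 1652 ± 272 (SD, n = 3 for each), a log2 difference of 4.16 ± 0.38 (SE). That SE is limma's, moderated across probe sets, while the SD of the log2 signals was 0.97 in Col-0 and 0.25 in atsf1-2. Col-0 replicate 2 lay farthest from its genotype mean, and without it the log2 difference was 4.72, a fold of 26.4. Taking the lowest atsf1-2 array over the highest Col-0 array still left a ratio of 6.82. This log2 difference ranked 7 among all 22746 probe sets and 1 among the 13648 that passed the filter on dim signals, which ATHSP22.0 met through its atsf1-2 signals.

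HSP23.6, a chaperone imported into the mitochondrial matrix, was well measured in both genotypes. Its signals were 735, 764 and 585 in Col-0, and 4893, 4546 and 4215 in atsf1-2. Arrays of one genotype lay close together, with a ratio of highest to lowest of 1.31 in Col-0 and 1.16 in atsf1-2. The means were 695 ± 95.9 and 4552 ± 339 (SD, n = 3 for each), and the log2 difference was 2.72 ± 0.13 (SE). The lowest mutant array was 5.52 times the highest Col-0 array, next to 5.43 for AT1G52560 and 6.82 for ATHSP22.0.

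HSP21 is the plastid member of the family and is known to protect the photosynthetic apparatus under heat. Its probe set was dim, with signals of 45.0, 95.6 and 58.0 in Col-0, and 134, 126 and 252 in atsf1-2. Replicate 2 of Col-0 and replicate 3 of atsf1-2 were the high arrays, and the genotypes were separated only narrowly, since the lowest mutant array was 1.31 times the highest Col-0 array. The means were 66.2 ± 26.3 and 171 ± 70.9 (SD, n = 3 for each), with a log2 difference of 1.36 ± 0.37 (SE). Both high arrays are the ones with raised dim signals. Without both of them the log2 difference was 1.34, but it was 1.66 without Col-0 replicate 2 alone and 1.04 without atsf1-2 replicate 3 alone. The geometric mean of HSP21 over the 6 arrays was 101, below the 104.4 that the filter required, so that 4 of the 5 members passed the filter. ATHSP22.0 and AT1G52560 passed it through their atsf1-2 signals, since their Col-0 means lay near or below it.

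AT1G52560 was dim in Col-0, with signals of 81.3, 104 and 52.1, and reached 605, 565 and 698 in atsf1-2. The genotypes were far apart, and the highest Col-0 array was again replicate 2. The means were 79.2 ± 26.1 and 623 ± 68.1 (SD, n = 3 for each), and the log2 difference was 3.03 ± 0.25 (SE). With 38.3, the 25th percentile of all signals, added to each signal before taking logs, its log2 difference was 2.51, below the 2.65 of HSP23.6 in the same setting.

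AT5G51440 had Col-0 signals far above the filter level. Its signals were 1338, 1193 and 1472 in Col-0, and 3676, 3225 and 3105 in atsf1-2. The genotypes did not overlap, and here Col-0 replicate 2 was the lowest array of its genotype. The means were 1334 ± 139 and 3335 ± 301 (SD, n = 3 for each), with a log2 difference of 1.32 ± 0.12 (SE). Although its fold was close to that of HSP21, the SE was far smaller, and the lowest mutant array was 2.11 times the highest Col-0 array.

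**Figure D2:**
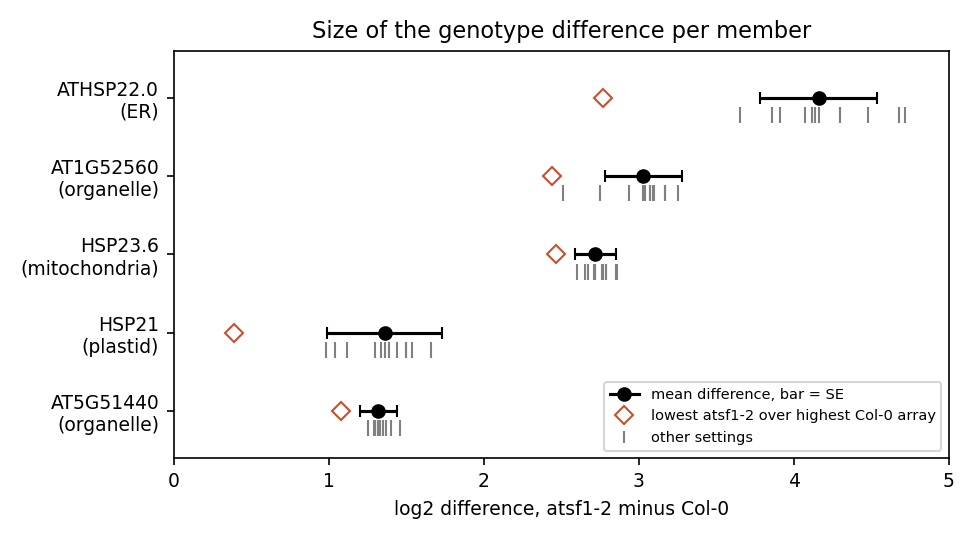
Log2 difference, atsf1-2 minus Col-0, for each member, with bars of 1 SE, a diamond for the lowest atsf1-2 array over the highest Col-0 array, and grey ticks for the other processing settings. ATHSP22.0 is highest in every setting shown, and HSP21 and AT5G51440, at 1.36 and 1.32, share the low end with different errors.

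The size of the difference varied among the members. The log2 ratio of ATHSP22.0 to HSP21 was 2.8 ± 0.43 (SE) larger in atsf1-2, and that of ATHSP22.0 to HSP23.6 was 1.44 ± 0.53 (SE) larger. In both the per-array ratios of the 2 genotypes did not overlap. HSP23.6 exceeded HSP21 by 1.36 ± 0.48 (SE) and AT5G51440 by 1.40 ± 0.20 (SE) in log2 difference. AT1G52560 and HSP23.6 differed by 0.31 ± 0.23 (SE) with overlapping ratios, and AT5G51440 and HSP21 by -0.04 ± 0.53 (SE), also overlapping. These values describe the members and rank nothing by test, and the differences of ATHSP22.0, AT1G52560 and HSP21 are taken against Col-0 signals near or below the filter level, which limits their size and place. ATHSP22.0 stayed first in all 12 alternative settings, and HSP23.6 stayed above HSP21 in all 12. AT1G52560 was above HSP23.6 in 11 of them and AT5G51440 above HSP21 in 4. The replicate block, 1 of the 12, cannot change these differences, since replicate numbers are balanced over the genotypes. Ratios of ATHSP22.0 to each other member, and of HSP23.6 to HSP21, did not overlap between the genotypes. Leaving out or weighting arrays therefore could not change those orders, and median centring shifts all members alike. Only the pseudocount and quantile normalization could have changed them. With 1 probe set for each named compartment, compartment and gene cannot be told apart.

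Spread within a genotype was unequal too. Col-0 replicate 2 gave the highest Col-0 signal for 4 of the 5 genes, by 1.12 above the genotype mean on the log2 scale for ATHSP22.0, 0.60 for HSP21, 0.45 for AT1G52560 and 0.15 for HSP23.6. AT5G51440 lay below its mean there, at -0.16. The genes with the larger deviations were those with dim Col-0 signals. On atsf1-2 replicate 3, HSP21 lay 0.64 above its genotype mean, while ATHSP22.0 and AT1G52560 lay 0.08 and 0.17 above and HSP23.6 and AT5G51440 lay below, at -0.11 and -0.10.

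**Figure D3:**
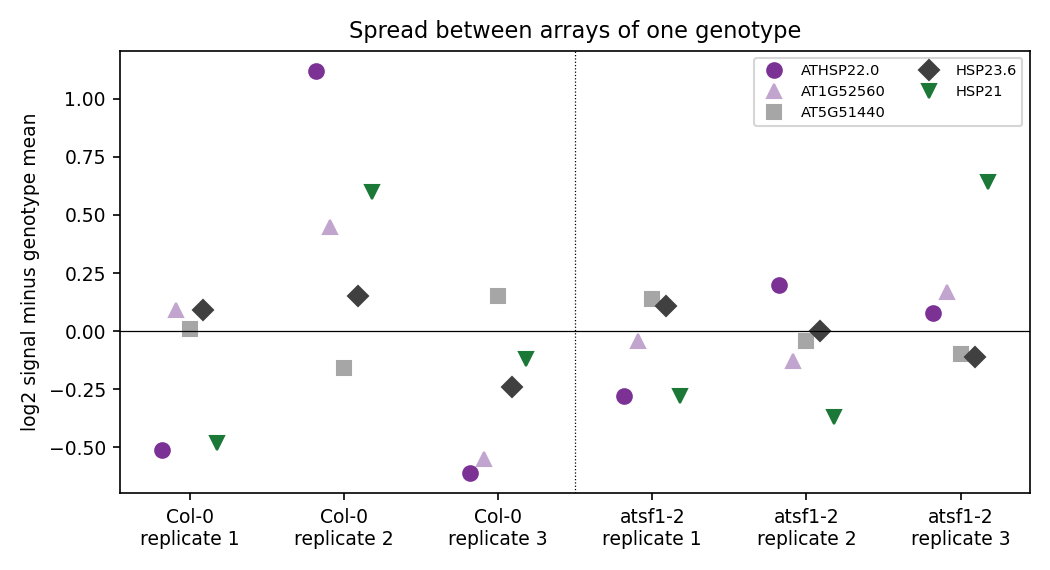
Log2 signal of each member on each array minus the mean of its genotype. Col-0 replicate 2 is high for ATHSP22.0 (1.12), HSP21 (0.60) and AT1G52560 (0.45), and atsf1-2 replicate 3 is high for HSP21 (0.64), while HSP23.6 and AT5G51440 stay within 0.24 of their means.

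Other chaperones of the same compartments were read from the same fit over 13648 probe sets, in which limma called 3.00% higher and 5.19% lower in atsf1-2 (409 and 709 probe sets). After quantile normalization these numbers were 450 and 477, and 755 and 362 when arrays were centred on their medians. In the endoplasmic reticulum list, which holds the lumenal chaperones and the sensors of unfolded proteins, 5 of 27 genes were tested. In this list and the mitochondrial chaperone, plastid and cytosolic lists below, untested genes had no probe set that the annotation paired with them alone. None of the 5 tested genes passed limma's adjusted threshold in either direction. An unadjusted limma p under 0.05 was found for 0 of the 5 and for 3545 of all 13648 probe sets tested. The median log2 difference of the 5 was 0.10, against -0.07 for all probe sets tested. ATERDJ3B, a J-domain partner of the lumenal HSP70, had signals of 1597, 1652 and 1505 in Col-0 and 1632, 1872 and 2102 in atsf1-2, a log2 difference of 0.23 ± 0.13 (SE, limma adjusted p = 0.295). The genotypes overlapped. BZIP28, a membrane-bound transcription factor of the unfolded protein response, had 0.27 ± 0.20 (SE, limma adjusted p = 0.425). Its signal was 593 on atsf1-2 replicate 3 against 962 and 1038 on the other mutant arrays, and without that array the log2 difference was 0.52 (limma adjusted p = 0.0396). BZIP60, the factor whose mRNA is spliced by the sensor IRE1, and CRT1b, a calreticulin, had log2 differences of 0.07 and 0.10. The log2 differences of these genes, 0.05 to 0.27, were small beside the 17.9-fold difference of ATHSP22.0. That gene was chosen with this contrast known.

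Of 19 listed mitochondrial chaperones and proteases, 2 were tested, and limma called 0 higher and 0 lower. An unadjusted limma p under 0.05 was found for 1, against 3545 of all 13648 probe sets tested. AT1G23100, listed as a chaperonin cofactor, had signals of 172, 256 and 171 in Col-0 and 402, 247 and 317 in atsf1-2. One mutant array fell within the Col-0 range. Its log2 difference was 0.69 ± 0.22 (SE, limma adjusted p = 0.0819), and it passed with median centring (0.0434) and with array weights (0.00675). NCLPP7, a subunit of the mitochondrial Clp protease, had 0.15 ± 0.14 (SE, limma adjusted p = 0.531).

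Of 34 listed plastid chaperones and proteases, 8 were tested and limma called none in either direction. An unadjusted limma p under 0.05 was found for 2 of the 8, against 3545 of all 13648 probe sets tested. The log2 differences of the 8 ran from -0.59 to 0.27 around a median of 0.05. Cpn60beta4, a chaperonin subunit, had signals of 367, 296 and 408 in Col-0 and 181, 221 and 327 in atsf1-2, a log2 difference of -0.59 ± 0.22 (SE, limma adjusted p = 0.128). Replicate 3 was the mutant array that overlapped Col-0, and without it the log2 difference was -0.82 (limma adjusted p = 0.0244). AT1G09130 of the same list had -0.39 ± 0.15 (SE, limma adjusted p = 0.129). No tested plastid gene of the list passed upward in the fit of all arrays, and the highest of them, Cpn60beta3, had 0.27. HSP21, at 1.36, lay higher, but it was chosen with this contrast known and lay below the filter.

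Small heat shock proteins of the cytosol and the peroxisome were the nearest comparison. Of 12 listed cytosolic and peroxisomal genes, 7 were tested, and limma called 6 higher in atsf1-2 and none lower. Over all 13648 probe sets tested, limma called 3.00% higher. The median log2 difference of the 7 was 1.38, against -0.07 for all probe sets tested. This list was chosen with earlier results of these data known. AT5G37670 rose from 606, 563 and 683 in Col-0 to 4864, 4270 and 4696 in atsf1-2, a log2 difference of 2.90 ± 0.13 (SE, limma adjusted p = 5.41e-07). AT1G53540 rose by 2.79 ± 0.14, AT2G29500 by 1.97 ± 0.17, AT1G54050 by 1.38 ± 0.17 and AT2G19310 by 0.86 ± 0.13 (log2, SE). AT5G47600 rose by 0.91 ± 0.25 (SE, limma adjusted p = 0.0499), a call that ended in 10 of its 14 alternative settings. It ended when Col-0 replicate 1, 2 or 3 or atsf1-2 replicate 1 or 3 was left out (limma adjusted p from 0.0803 to 0.155). It also ended with no filter, with the pseudocount and by eBayes without trend (limma adjusted p = 0.1, 0.0517 and 0.0541). AT4G21870 had 0.47 ± 0.18 (SE, limma adjusted p = 0.132) and did not pass. The members of the set, at 1.32 to 4.16, and these 7, at 0.47 to 2.90, covered overlapping ranges. A difference between the 2 groups was not tested.

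**Figure D4:**
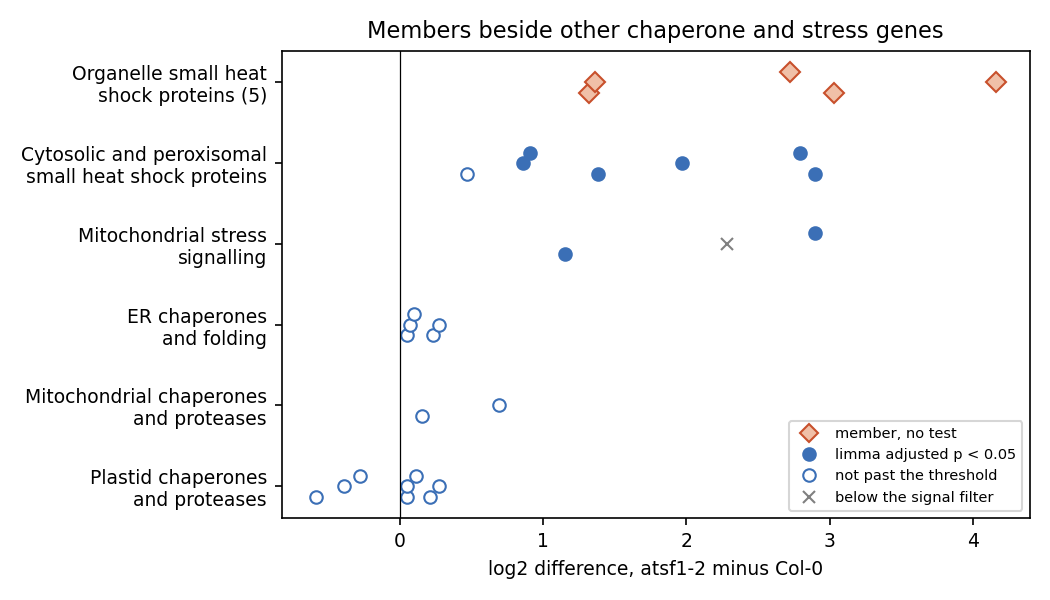
Log2 difference, atsf1-2 minus Col-0, for the 5 members (diamonds, no test) and for the listed genes of other groups, filled where limma's adjusted p was under 0.05, open where it was not, and crossed where the gene lay below the filter. The small heat shock proteins and the mitochondrial stress genes lie to the right, and the tested chaperones and proteases of the endoplasmic reticulum, mitochondria and plastid lie between -0.59 and 0.69.

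Among 7 listed genes of mitochondrial stress signalling, the response to impaired mitochondria, 2 were tested and limma called both higher. Over all 13648 probe sets tested, limma called 3.00% higher, and this list too was chosen with earlier results known. AT2G21640 rose from 173, 214 and 179 to 1222, 1343 and 1678, a log2 difference of 2.90 ± 0.16 (SE, limma adjusted p = 3.03e-06). AT5G09570 rose from 784, 798 and 537 to 1521, 1479 and 1642, by 1.15 ± 0.17 (SE, limma adjusted p = 0.00366). NDB4, an alternative NADH dehydrogenase of the mitochondrial inner membrane, was below the filter, with signals of 27.4, 20.8 and 20.3 in Col-0 and 113, 83.2 and 141 in atsf1-2, and a log2 difference of 2.28 ± 0.40 (SE) without the filter. None of the 22 listed heat shock factors and coactivators, the regulators of small heat shock protein genes, had a probe set of its own in the annotation, and they were not analysed here.

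The genes whose log2 signals followed each member most closely over the 6 arrays were sought among 7274 tested probe sets that name 1 gene. Over 6 arrays in 2 genotypes, Pearson's r mainly reflects the step between genotypes, so it is given as a description. Genes chosen by r also tend to share a member's high and low arrays, so such sharing is no separate result. For ATHSP22.0 the 3 closest were AT5G58110 (r = 0.995), AT2G21130 (r = 0.993) and the small heat shock gene AT2G29500 (r = 0.992), which shared its high Col-0 replicate 2, at 2186 against 1481 and 1398 on the other Col-0 arrays. For AT1G52560 they were AT5G23710 (r = 0.999), AT2G21130 (r = 0.996) and the small heat shock gene AT1G53540 (r = 0.994). AT1G53540 was also the closest to HSP23.6 (r = 0.996), followed by AT3G16330 (r = 0.993) and AT5G23710 (r = 0.992).

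AT5G51440 and HSP21 had other nearest genes. THIC, an enzyme of thiamine synthesis in the plastid, was closest to AT5G51440 (r = 0.999), with signals of 1254, 1108 and 1363 in Col-0 and 2652, 2460 and 2314 in atsf1-2, and it rose by 1.00 ± 0.13 (log2, SE; limma adjusted p = 0.00226). AT1G21050 (r = 0.997) and AT5G62440 (r = 0.995) followed. Those closest to HSP21 were AT5G39570 (r = 0.997), AT5G56710 (r = 0.992) and AGL26 (r = 0.991). None of these 3 passed (limma adjusted p from 0.0872 to 0.269), nor did AT5G58110 (0.0898), AT5G23710 (0.107) or AT1G21050 (0.0898) among the genes closest to other members. The 3 genes closest to HSP21 shared with it the high Col-0 replicate 2 and atsf1-2 replicate 3, which follows from choosing them by r over the same arrays.

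Few genes next to a member on the chromosome were tested, and none of them passed the threshold. ATHSP22.0 and AT5G51440 had no tested neighbour. Of the 20 protein-coding neighbours, 2 on each side of each member, 8 had a probe set that the annotation paired with them alone. Of these, 5 passed the filter. Limma called 0 of the 5, and over all 13648 probe sets tested it called 3.00% higher and 5.19% lower. With those shares, 0 of 5 says nothing particular about the neighbours. The log2 differences of AT1G52540 and AT1G52550 beside AT1G52560 were -0.29 ± 0.17 and -0.10 ± 0.21 (SE). AT4G25210, next to HSP23.6, had signals of 1183, 1192 and 1095 in Col-0 and 1268, 1223 and 1255 in atsf1-2, a log2 difference of 0.11 ± 0.12 (SE, limma adjusted p = 0.597). AT4G27680 next to HSP21 had -0.03 ± 0.20 (SE). AT4G27657, the second gene on its other side, had -0.89 ± 0.27 (SE, limma adjusted p = 0.0656). The neighbours were chosen by position after the member values were known.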

How the data were processed

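The authors deposited 1 signal intensity per probe set and array, from 300 ng of total RNA per sample, per the labels' protocols. Per the submitters' processing notes, the tools were Affymetrix Expression Console 1.2 and MAS5. Background and detection settings and a genome build are not stated there. Genotypes and replicates were taken from the sample titles, which call the replicates biological. Of 22810 probe sets, 64 controls were left out. The platform annotation named 1 gene for 13513 of the others, several for 503 and none for 8730, and 13436 matched the RefSeq table of TAIR10.1 by gene identifier, which was used for names and gene order.

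Signals were taken to log2 without further scaling. Probe sets with a mean log2 signal at or above the 40th percentile, a geometric mean of 104.4, entered a two-sided limma 3.58.1 fit (R 4.3.3, lmFit and eBayes with trend) with Benjamini-Hochberg adjustment over 13648 probe sets and a threshold of 0.05. The fit was tested on simulated data. Differences of the 5 members and their SEs come from the same fit without the filter. SEs of single genes are moderated by eBayes. Errors of differences between 2 members are unmoderated. No pair of arrays held identical values.

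The members and all gene lists were chosen with earlier results of these data known. Named genes are the 5 members, up to 6 genes of each list past the threshold or else the 2 with the smallest p, and the 3 genes closest to each member by Pearson's r. Other listed genes, neighbours and NDB4 were named after their values were seen. Alternatives were no filter, the 60th percentile, a pseudocount of 38.3, quantile normalization, median centring, array weights, eBayes without trend, a replicate block, and leaving out each array. A fit without both arrays of raised dim signals was added after the data were seen. The number of arrays limits the precision.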

Additional observations from a re-analysis of the deposited data

How the results depend on the processing

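All 5 members were higher in atsf1-2 under the 12 alternatives run for them. The arrays of the genotypes did not overlap for any member. Leaving out or weighting arrays, the pseudocount and the replicate block therefore could not change the sign. Without single arrays their log2 differences ran from 3.86 to 4.72 for ATHSP22.0, 2.75 to 3.25 for AT1G52560, 1.25 to 1.40 for AT5G51440, 2.60 to 2.79 for HSP23.6 and 1.04 to 1.66 for HSP21. AT1G52560 moved by more than its spread with a pseudocount (2.51), and AT5G51440 with median centring (1.46), which shifted the median of all probe sets from -0.049 to 0.092. With the pseudocount HSP21 had 0.98.

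Probe sets called higher numbered 409, but 947 with array weights, 271 by eBayes without trend, 755 with median centring, 267 with no filter and 125 to 461 without single arrays. Those called lower numbered 709, but 1713 with array weights, 362 with median centring, 439 with no filter and 144 to 786 without single arrays. The cause was not tested. In the mitochondrial chaperone list 1 gene was higher with median centring and 1 with array weights. In the plastid list 1 was lower with array weights and 1 without Col-0 replicate 2 and atsf1-2 replicate 3. Without single arrays the endoplasmic reticulum list gave 0 to 1 higher and the plastid list 0 to 1 lower. The counts of the cytosolic and mitochondrial stress lists stayed within 1.5 times. None of the 14 listed genes followed through the alternatives changed sign.

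The replicate block left 171 higher and 263 lower probe sets, and AT5G47600 no longer passed (limma adjusted p = 0.0629). Replicate numbers are balanced over the genotypes, so this block cannot change a log2 difference. The members' values were therefore again 4.16, 3.03, 1.32, 2.72 and 1.36. Deviations of same-numbered arrays correlated at 0.10, -0.19 and -0.21, so the numbers were not taken as pairs. Dim Col-0 signals limit the folds of ATHSP22.0, AT1G52560 and HSP21.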
